A study of Mus musculus with 23 samples.

Results

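Lingo1 and the proteins of the Nogo receptor complex were followed across the frontal cortex (FC), striatum (ST) and hypothalamic samples (HT) of mice on different diets. The 8 genes are Rtn4 and Omg, which encode ligands, Rtn4r, Rtn4rl1 and Rtn4rl2, which encode the receptor and its relatives, and Lingo1, Lingo2 and Lingo3, which encode Lingo co-receptors. They were found by gene symbol among the 36161 gene names of the array. Lingo1 was chosen by a measured value, its large difference between diets in FC, and the other 7 genes because they belong to the same complex or gene families. The FC difference of Lingo1 is therefore given as a description, with no test.

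The samples came from female C57BL/6 mice with a labeled age of 5 weeks. One group received standard chow (SC) and the other a free choice of chow and a chocolate mixture (CM), for 8 weeks, and tissue was taken after an 11-day battery of tests. Free choice was interrupted during some of these tests. SC mice were given the chocolate mixture for short periods in a test of limited access and, made bitter with quinine, in another. Neither group therefore kept its diet throughout, and each was back on it before tissue was taken. Total RNA of each sample was labeled and hybridized to 1 one-color Agilent array. There were 23 arrays, 4 of SC FC, 3 of CM FC, and 4 each of SC ST, CM ST, SC HT and CM HT. SC replicates 1 to 4 are the same 4 mice in each region, and CM FC replicates 1 to 3 come from the mice of CM ST and CM HT replicates 2 to 4. The FC of the remaining CM mouse was not analysed here.

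Nogo-A, a protein encoded by Rtn4, oligodendrocyte-myelin glycoprotein (Omg) and myelin-associated glycoprotein (Mag) are known inhibitors of axon growth. They bind the Nogo receptor (Rtn4r), which is anchored in the neuronal membrane by a lipid and has no part inside the cell. The receptor signals through partners such as the neurotrophin receptor p75 (Ngfr), TROY (Tnfrsf19) and Lingo1, which lead to the small GTPase RhoA and its kinases and so to the actin skeleton. In the adult brain the system is known for limiting the growth and plasticity of axons and synapses.

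Each gene had 1 probe of 60 bases, printed as 1 spot per array, and each passed the filter on low signals, so every gene rests on a single probe. All 8 transcript identifiers were found under the same symbol in the reference gene table. Genome positions (mm9) were read from the annotation of the array. The Lingo1 probe (NM_181074) lies at chr9:56466922-56466981 on the minus strand. The probes of Lingo2 (NM_001165999) and Lingo3 (NM_001013758) lie at chr4:35654655-35654714 and chr10:80295824-80295883, both on the minus strand. The receptor probes lie at chr16:18152423-18152482 (Rtn4r, NM_022982), chr11:75080214-75080273 (Rtn4rl1, NM_177708) and chr2:84720564-84720623 (Rtn4rl2, NM_199223), the last on the minus strand. The Omg probe (NM_019409) lies at chr11:79314993-79315052 on the minus strand. The Rtn4 probe (NM_194054) is given as chr11:29641510-29641717, a span of 208 bases for 60 bases of probe, so its sequence is interrupted in the genome. Whether a probe lies in coding or untranslated sequence was not determined.

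The last 30 bases of each probe are shown because the probes differ in base composition, which is used beside the Lingo1 values. Capitals mark G and C.
Lingo1: atGaaaaCttGaaataataaaaaGaaaaaa
Lingo2: aCtataaataaaGGCatGtGCCtaGttttG
Lingo3: aGGaCaCGaatGaCtGGGttGaCtGGCatt
Rtn4: GCatCaGGCGCaGataGatCattatCtaGG
Rtn4r: taCttGtGtaaaatatCGGatGaCGtGGaa
Rtn4rl1: GtGCaGttttataCCtatGtCCaCttatat
Rtn4rl2: CaGCCtaCaGtaCCtCtaCCtCCaGGaGaa
Omg: tGGtaCttGCtGCtattttCCtGtCttaaG

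G and C made up 11 of the 60 bases of the Lingo1 probe, or 18.3%. Of 31395 tested transcript identifiers, only 15, Lingo1 included, had a probe with so low a share. The share was 31.7% for Rtn4r, 35% for Lingo2 and Omg, 40% for Rtn4 and Rtn4rl1, 45% for Lingo3 and 55% for Rtn4rl2, and the median of all tested identifiers was 43.3%.

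Several features of the arrays touch the results. The arrays lay on 3 slides. SC FC replicates 2 to 4 were on slide 1 and replicate 1 on slide 2, whereas all 3 CM FC arrays were on slide 3, so no slide held FC arrays of both diets. All CM ST arrays and SC ST replicate 1 were on slide 1, SC ST replicates 2 and 3 on slide 2 and replicate 4 on slide 3. All CM HT arrays and SC HT replicate 4 were on slide 2, and the other SC HT arrays on slide 3. In FC, diet and slide cannot be told apart without the other regions. The scanner software called between 36432 and 38472 spots well above background on each SC FC array, and for CM FC this number was 41481 to 42261. Region markers were compared in SC mice. At an adjusted p under 0.05, all 7 striatal markers were higher in ST than in FC of SC mice, where 14.9% of all identifiers were called. All 4 cortical markers were lower in HT than in FC, where 43.2% of identifiers were called. The values of all 4 cortical markers were also lower in ST than in FC (-2.07 to -1.59), but only 2 of the 4 had an adjusted p under 0.05. The mean of the striatal markers varied among the FC arrays, from 9.68 to 12.16 in SC and from 9.67 to 12.12 in CM mice. Their median diet difference in FC was -1.19, and 1 of 7 was called, beside 28.6% of identifiers. The HT arrays are labeled as a thalamic region, while the dissection protocol names the hypothalamus. Both kinds of marker were high in them. Of the markers, 6 of 8 hypothalamic and 5 of 5 thalamic were called higher than in FC of SC mice, beside 43.2% of identifiers. Against ST of SC mice, 3 of 8 and 5 of 5 were called higher, beside 21.5%. The mean of the hypothalamic markers varied from 9.36 to 13.34 among the SC HT arrays and from 10.52 to 12.59 among the CM HT arrays. Among the SC ST arrays it varied from 6.79 to 11.34. The mean of the 4 cortical markers varied from 7.05 to 10.84 (log2) among the ST arrays. The mean of 4 choroid plexus markers was 13.59 on CM ST replicate 4 against 8.17 to 9.46 on the other CM ST arrays.

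Values below are normalized signals on the log2 scale, where a difference of 1 is a doubling. They describe RNA per amount of RNA in the dissected tissue, so a change within cells and a change in which cells were sampled cannot be told apart. Differences come from a limma model fitted to all 31395 identifiers and 23 arrays with the mouse as a random block, and adjusted p is the Benjamini-Hochberg value over all identifiers. A difference was called at an adjusted p under 0.05. The same model with an added fixed term for the slide, called the slide-adjusted model below, was fitted beside it.

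Lingo1 encodes a leucine-rich membrane protein that joins the Nogo receptor on neurons. In FC of SC mice its signal was 9.41, 5.48, 6.12 and 5.59 in replicates 1 to 4. In FC of CM mice it was 9.72, 9.84 and 9.50 in replicates 1 to 3. The groups did not overlap, but SC replicate 1, the only SC FC array off slide 1, lay just below the lowest CM array and far above the other SC arrays. The fitted difference between CM and SC was 3.48 ± 0.44 (SE, n = 3 CM and 4 SC arrays). It was 0.41 ± 0.48 in the slide-adjusted model. These FC values chose the gene and carry no test.

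In ST the Lingo1 signal was 4.99, 8.97, 7.45 and 7.78 in SC replicates 1 to 4. In CM replicates 1 to 4 it was 5.20, 4.97, 5.24 and 4.94. SC replicate 1 lay among the CM arrays, so the groups overlapped, and the other 3 SC arrays lay above all CM arrays. The Lingo1 spot was not well above background on any of the 4 CM arrays nor on SC replicate 1, so the size of the difference is uncertain. As measured, the mean signal was 4.63-fold lower in CM mice (means 7.30 in SC and 5.09 in CM, limma adjusted p = 0.0063). The fitted difference was -2.43 ± 0.49. In the slide-adjusted model the direction turned and the call was lost (0.33 ± 0.33, unadjusted p = 0.34 in limma). The call was also lost without array weights (adjusted p = 0.071), with the ST arrays fitted alone (adjusted p = 0.067) and with the slide as a random block (adjusted p = 0.12). Within slide 1, which held 4 CM arrays and 1 SC array, the CM mean exceeded the SC value by 0.10, with a CM SD of 0.15.

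In HT the Lingo1 signal was 8.13, 8.35, 8.29 and 7.72 in SC replicates 1 to 4. In CM replicates 1 to 4 it was 8.54, 8.11, 7.91 and 8.08. The groups overlapped, and all 8 arrays were well above background. The difference was -0.07 ± 0.37 (adjusted p = 0.97). The diet difference in ST minus that in HT was -2.36 ± 0.63 and did not pass the test (adjusted p = 0.072), and no identifier on the array did in that comparison (0%). It passed without SC ST replicate 1 (-3.01, adjusted p = 0.0046), SC ST replicate 2 (-2.05, adjusted p = 0.043), SC ST replicate 3 (-3.16, adjusted p = 0.030) or SC FC replicate 1 (-2.38, adjusted p = 0.012), and was 0.33 ± 0.49 in the slide-adjusted model.

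**Figure D1:**
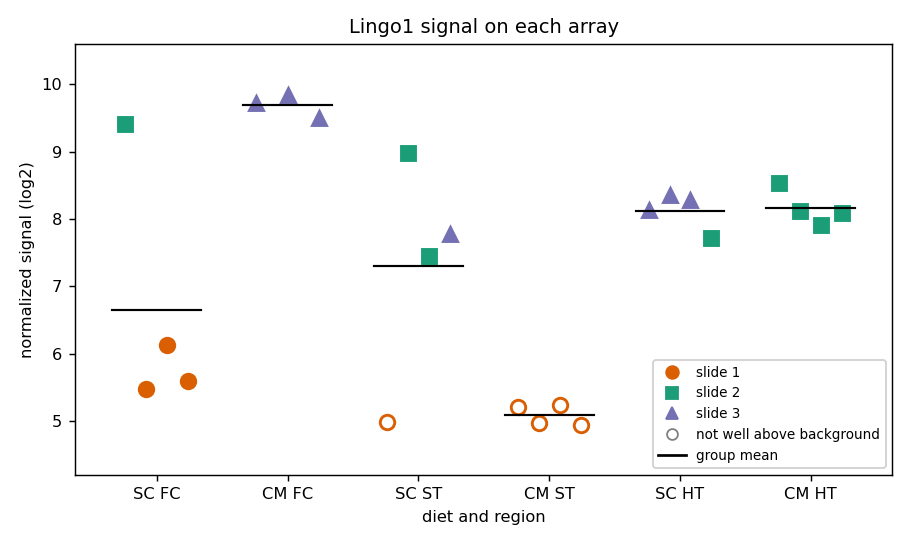
Normalized Lingo1 signal (log2, vertical axis) on each of the 23 arrays by diet and region, with the slide given by shape and color, open points for spots not well above background and lines for group means. The 8 arrays of slide 1 lie between 4.94 and 6.12, and the 15 arrays of the other slides between 7.45 and 9.84.

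Arranged by slide, all Lingo1 values on slide 1 lay below all values on the other slides. On slide 1 the signal ranged from 4.94 to 6.12 over 8 arrays, on slide 2 from 7.45 to 9.41 over 8 arrays, and on slide 3 from 7.78 to 9.84 over 7 arrays. In scanner units, the median spot intensity on slide 1 was at most 83, over a local background of 26 to 30, and that on the other slides at least 204. The slide terms of Lingo1 in the slide-adjusted model were 3.29 for slide 2 over slide 1 and 3.40 for slide 3 over slide 1. They ranked 2nd and 6th in size among 31395 identifiers, for which the median sizes were 0.20 and 0.30. The FC values that chose Lingo1 enter these terms, so the ranks are a description and not a test. Slide 1 lay wholly below the other slides for 1636 identifiers (5.21%), and for Lingo1 alone among the 8 genes.

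On each slide that held FC arrays and those of another region, Lingo1 was highest in FC. Diet differed with region on these slides. On slide 1 all FC arrays were from SC mice and 4 ST arrays from CM mice. On slide 3 all FC arrays were from CM mice and the ST and HT arrays from SC mice. Slide 2 held 1 FC array. On slide 1 it was 5.48 to 6.12 in FC and 4.94 to 5.24 in ST. On slide 2 it was 9.41 in FC, 7.45 and 8.97 in ST, and 7.72 to 8.54 in HT. On slide 3 it was 9.50 to 9.84 in FC, 7.78 in ST and 8.13 to 8.35 in HT. ST and HT overlapped on slide 2, and in SC mice they differed by 0.64 ± 0.52 (HT over ST, adjusted p = 0.44), or 0.05 ± 0.39 in the slide-adjusted model (adjusted p = 0.97). Over both diets HT exceeded ST by 1.82 ± 0.31 (adjusted p = 6.5e-05), and in the slide-adjusted model the value was -0.12 ± 0.28 (adjusted p = 0.81). The order of FC and ST turned with the slide: ST exceeded FC of SC mice by 1.32 ± 0.57 without a slide term and fell below it, by -1.13 ± 0.31, with one. That of HT and FC turned likewise, from 1.96 ± 0.49 to -1.08 ± 0.46. The FC values chose the gene, so no test is given for these.

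Probes at both ends of the range of G and C differed between slides. Among 30 identifiers with a share of up to 20%, the median slide term was 1.06 for slide 2 over slide 1 and 1.09 for slide 3 over slide 1, and 46.7% of them were wholly lower on slide 1. The median difference between CM and SC among them was 0.95 (FC), -0.83 (ST) and 0.10 (HT). Among 11654 identifiers with a share over 40% and up to 45%, the median slide terms were -0.05 and -0.04, and the median diet differences were -0.06 (FC) and 0.04 (ST), with a value near 0 in HT. At the high end, 237 identifiers over 55% and up to 60% had median slide terms of 0.16 and 0.34, and 217 identifiers over 60% had 0.26 and 0.44. In these bins the median diet differences were 0.22 and 0.24 (FC) and -0.19 and -0.29 (ST), and 21.1% and 26.3% of the identifiers were wholly lower on slide 1. The part of base composition in the Lingo1 values was not tested, and none of the other 7 genes had a share under 30%.

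**Figure D2:**
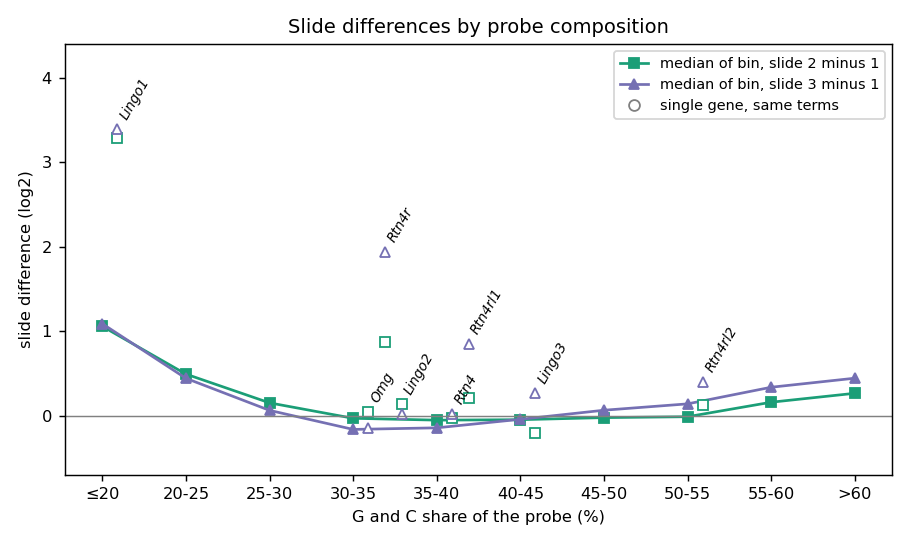
Median slide difference (log2, vertical axis) of all tested identifiers by the share of G and C in the probe (horizontal axis, %), with filled squares for slide 2 minus 1, filled triangles for slide 3 minus 1 and open symbols for the 8 genes. The medians are 1.06 and 1.09 in the lowest bin, -0.05 and -0.04 at 40 to 45% and 0.26 and 0.44 above 60%, and Lingo1 lies above its bin at 3.29 and 3.40.

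The 5 identifiers whose signal was most like that of Lingo1 over the 23 arrays were Slc22a13 (Pearson r = 0.98), Hes2 (0.97), Slc4a10 (0.97), Chmp4c (0.97) and Slc25a22 (0.96). These are descriptions over arrays that share slides and mice, and the FC values that chose Lingo1 enter each r. Their probes held 55%, 40%, 25%, 45% and 18.3% G and C, so 3 of the 5 were not low in these bases. Slide 1 lay wholly below the other slides for each of them. For Slc25a22, a mitochondrial glutamate carrier, the ranges were 10.11 to 11.17 and 11.85 to 12.69. They were picked for likeness to Lingo1, whose values split by slide in this way, so the split is a description and not a further result. In all, 333 identifiers besides Lingo1 had an r above 0.9 with it. Among the other genes of the complex the r with Lingo1 ranged from -0.52 (Lingo3) to 0.65 (Rtn4r).

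None of the other 7 genes was called between diets in FC by limma, where 28.6% of all identifiers were, and 1 of them (Lingo2) had an unadjusted p under 0.05. With the study's thresholds of 2-fold and an adjusted p under 0.01, 2.94% of identifiers passed and none of the 7 did. Among all 8 genes in ST, Lingo1 alone was called, against 9.82% of identifiers (0.602% at the study's thresholds, which Lingo1 passed). None was called in HT, against 0.43% of identifiers (0.178% at the study's thresholds of 1.5-fold and an adjusted p under 0.05), and 1 (Lingo3) had an unadjusted p under 0.05. The median size of the diet difference was 0.24 in FC for the 7 genes and 0.23 for all identifiers, 0.07 and 0.18 in ST for the 8 genes, and 0.07 and 0.10 in HT. In the slide-adjusted model no gene of the complex was called in any region, nor was any identifier on the array (0%), and none of the genes had an unadjusted p under 0.05.

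**Figure D3:**
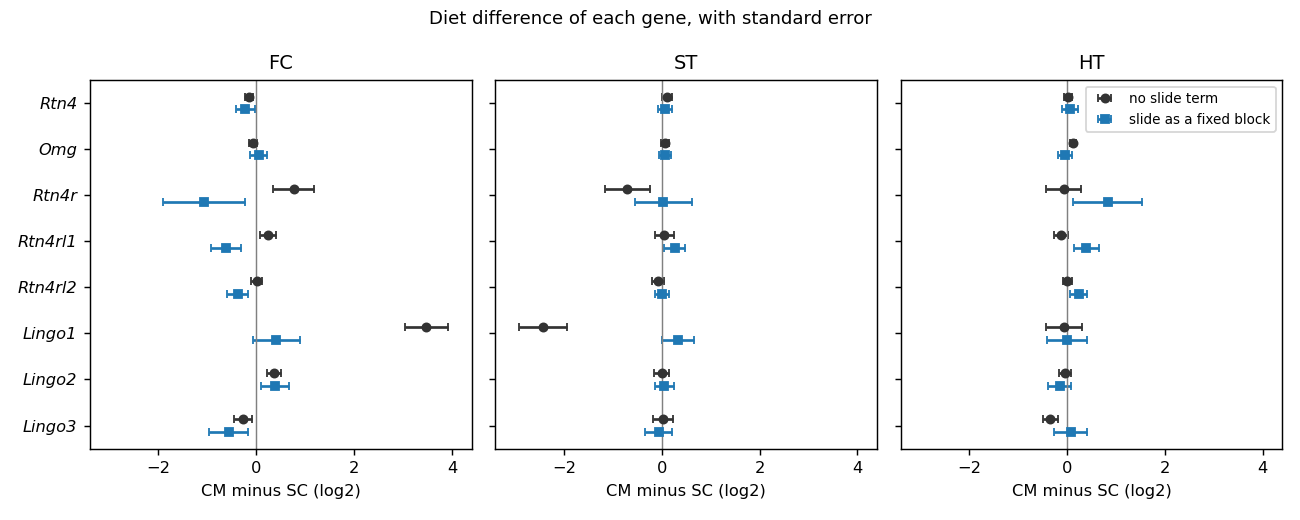
Difference between CM and SC (log2, horizontal axis) of the 8 genes in FC, ST and HT, from the model without a slide term (circles) and the slide-adjusted model (squares), bars showing the standard error. Lingo1 lies at 3.48 in FC and -2.43 in ST without a slide term and at 0.41 and 0.33 with one.

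Of the ligands, Rtn4 differed little between diets. Its signal in FC was 13.49, 13.35, 13.35 and 13.04 in SC replicates 1 to 4 and 13.10, 13.12 and 13.18 in CM replicates 1 to 3, so the groups overlapped. The difference was -0.15 ± 0.09 (FC), 0.11 ± 0.10 (ST) and 0.01 ± 0.08 (HT), with adjusted p of 0.23, 0.55 and 0.97 in limma. Without SC FC replicate 4 the FC difference was -0.24 and passed the test (adjusted p = 0.046). Omg, a myelin and neuronal surface protein, differed by -0.07 ± 0.08, 0.07 ± 0.09 and 0.12 ± 0.07, with adjusted p of 0.54, 0.70 and 0.49. The test being missed does not show that the diets were alike.

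Of the receptors, Rtn4r had the widest spread between arrays. In FC its signal was 11.50, 10.06, 10.96 and 10.76 in SC replicates 1 to 4 and 11.63, 11.61 and 11.36 in CM replicates 1 to 3. SC replicate 1, off slide 1, lay among the CM arrays. The difference was 0.76 ± 0.42 in FC (adjusted p = 0.19), -0.70 ± 0.47 in ST (adjusted p = 0.36) and -0.07 ± 0.35 in HT (adjusted p = 0.96). Without SC ST replicate 3 the ST difference was -1.85 and passed the test (adjusted p = 0.014), and with the FC arrays fitted alone the FC difference was 0.78 and passed it (adjusted p = 0.039). The slide-adjusted values were -1.07 ± 0.84, 0.03 ± 0.58 and 0.83 ± 0.70. Rtn4rl1 and Rtn4rl2, related receptors with partly different ligands, differed between diets by -0.12 to 0.24 in the 3 regions, and none passed the test.

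Of the other Lingo genes, Lingo2 in FC was 10.06, 9.12, 9.66 and 10.15 in SC replicates 1 to 4 and 10.16, 10.09 and 10.05 in CM replicates 1 to 3. The groups overlapped, since 2 SC arrays lay among the CM arrays. The difference was 0.36 ± 0.14 (adjusted p = 0.052). It passed under several other settings, among them without SC FC replicate 4 (0.49, adjusted p = 0.0083) and without SC FC replicate 1 (0.44, adjusted p = 0.030), and in the slide-adjusted model it was 0.37 ± 0.29 (adjusted p = 0.88). The other such arrays were CM HT replicate 1 (adjusted p = 0.048) and CM ST replicate 2 (adjusted p = 0.049). In ST and HT the Lingo2 differences were -0.0045 ± 0.15 and -0.05 ± 0.11. Lingo3 in HT was 9.59, 10.13, 9.75 and 9.91 in SC replicates 1 to 4 and 9.29, 9.57, 9.47 and 9.59 in CM replicates 1 to 4. All CM arrays lay below all SC arrays, though the closest pair was nearly equal, and the difference of -0.35 ± 0.15 did not pass the test (adjusted p = 0.33). It was 0.07 ± 0.33 in the slide-adjusted model, and within slide 2 the CM mean lay 0.43 below the single SC array.

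The diet difference in FC was compared with those in ST and HT for the 7 genes other than Lingo1. None was called in FC against ST, where 30.1% of identifiers were, or in FC against HT, where 20% were. One gene had an unadjusted p under 0.05 in each comparison, Rtn4r in the first (1.47 ± 0.64, adjusted p = 0.090) and Lingo2 in the second (0.41 ± 0.18, adjusted p = 0.12). Rtn4r passed the first without SC ST replicate 1 (2.04, adjusted p = 0.024) or SC ST replicate 3 (2.63, adjusted p = 0.0033) and turned to -1.10 ± 1.18 in the slide-adjusted model. Lingo2 passed the second without SC FC replicate 4 (0.53, adjusted p = 0.032).

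Regions were compared within SC mice. There, 1 of the 7 genes other than Lingo1 was called between ST and FC (14.9% of identifiers were), 2 of 7 between HT and FC (43.2%), and 3 of 8 between HT and ST (21.5%). The slide-adjusted model called 3 of 7, 2 of 7 and 1 of 8, where 10.9%, 14.8% and 15% of identifiers were. The median size of the difference was 0.40, 0.21 and 0.41 for these genes and 0.22, 0.32 and 0.22 for all identifiers.

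**Figure D4:**
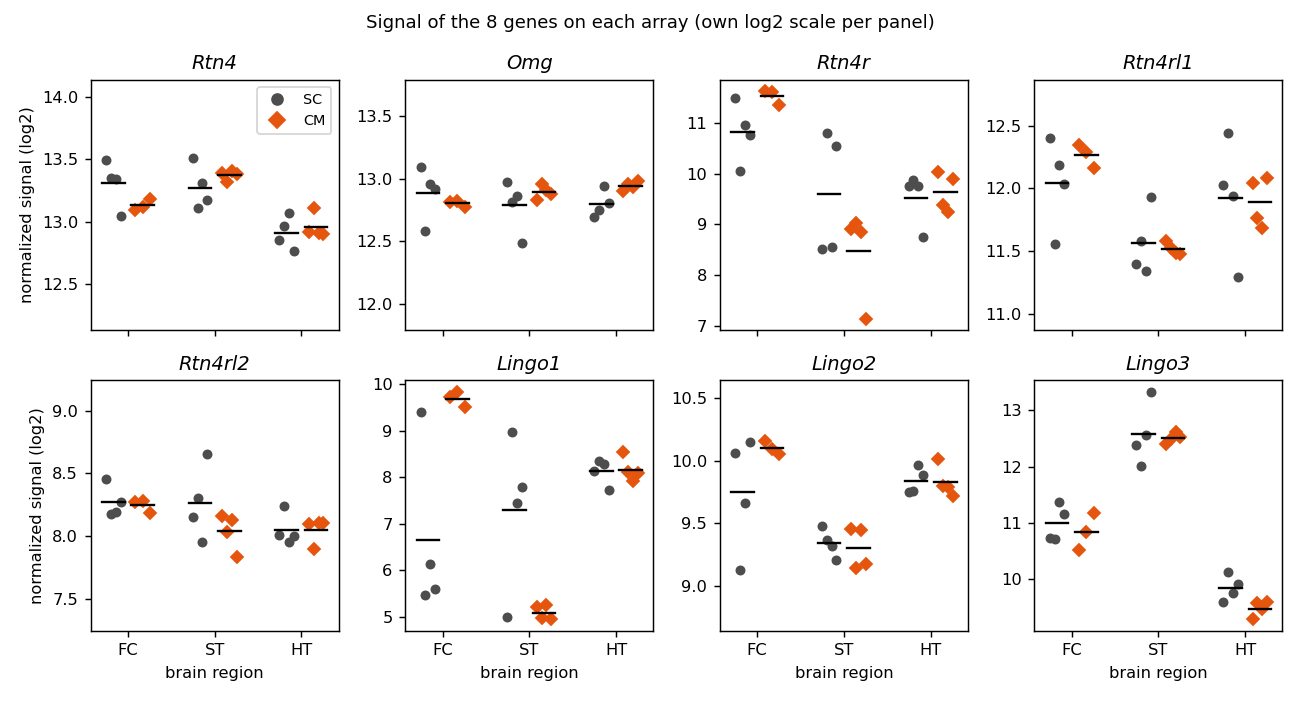
Normalized signal (log2, vertical axis, own range per panel) of the 8 genes on each array by region, with circles for SC, diamonds for CM and lines for group means. Lingo3 runs from 12.02 to 13.33 in ST, 10.52 to 11.38 in FC and 9.29 to 10.13 in HT with no overlap between regions, whereas Omg overlaps in all 3.

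Lingo3, which encodes a relative of Lingo1 with the same build of leucine-rich repeats, separated the regions on every array. In ST of SC mice its signal was 12.39, 12.02, 12.56 and 13.33 in replicates 1 to 4. In FC of SC mice it was 10.73, 10.71, 11.38 and 11.15, and in HT 9.59, 10.13, 9.75 and 9.91. The lowest ST array lay above the highest FC array, and the lowest FC array above the highest HT array, also when the CM arrays were included. ST exceeded FC by 1.39 ± 0.24 (2.61-fold, adjusted p = 0.0016). HT lay below FC, by -1.26 ± 0.20 (adjusted p = 5.9e-05), and below ST, by -2.65 ± 0.22 (6.26-fold, adjusted p = 6.0e-08). All 3 were also called in the slide-adjusted model, at 1.46 ± 0.25, -1.50 ± 0.38 and -2.96 ± 0.31. Within slide 2, the ST arrays were at 12.02 and 12.56, the FC array at 10.73 and the HT arrays between 9.29 and 9.91. The striatal marker mean in FC was 9.68, 11.57, 12.16 and 12.04 in SC replicates 1 to 4. In CM replicates 1 to 3 it was 9.67, 10.04 and 12.12. Lingo3 in FC was highest where this mean was highest, in SC replicates 3 and 4 and CM replicate 3 (11.38, 11.15 and 11.17). In HT, SC replicate 2 was highest in both (10.13 for Lingo3, 11.49 for the markers). The part of striatal tissue in the Lingo3 values, including the HT diet difference, was not tested.

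Lingo2 was lower in ST than in HT. In SC mice its signal was 9.48, 9.37, 9.32 and 9.21 in ST replicates 1 to 4 and 9.75, 9.76, 9.97 and 9.89 in HT replicates 1 to 4. The groups did not overlap, and HT exceeded ST by 0.53 ± 0.16 (adjusted p = 0.023). The call was lost in the slide-adjusted model, at a like difference of 0.56 ± 0.23 (adjusted p = 0.13), and without SC HT replicate 3 (0.45, adjusted p = 0.093). Over both diets, HT exceeded ST by 0.51 ± 0.10 (adjusted p = 2.0e-04), or by 0.45 ± 0.16 in the slide-adjusted model (adjusted p = 0.049). ST lay below FC by -0.40 ± 0.18 in SC mice (adjusted p = 0.14), and without SC FC replicate 2 this was -0.55 and passed the test (adjusted p = 0.023).

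Rtn4r was highest in FC. Over both diets it ranged from 10.06 to 11.63 in FC (median 11.36, n = 7), from 7.14 to 10.81 in ST (median 8.88, n = 8) and from 8.75 to 10.03 in HT (median 9.75, n = 8). FC and HT did not overlap, while the upper 2 ST arrays lay within the FC range. In SC mice, ST differed from FC by -1.44 ± 0.55 (adjusted p = 0.082) and HT from FC by -1.15 ± 0.47 (adjusted p = 0.052), which did not pass the test. Over both diets the differences were -2.18 ± 0.32 (adjusted p = 2.4e-05) and -1.57 ± 0.28 (adjusted p = 7.9e-05). They were -1.56 ± 0.41 (adjusted p = 0.0093) and -1.89 ± 0.33 (adjusted p = 0.00012) in the slide-adjusted model. In SC mice alone that model gave -2.11 ± 0.53 (adjusted p = 0.016) and -2.84 ± 0.80 (adjusted p = 0.023). The SC difference between ST and FC was -2.08 without SC ST replicate 2 (adjusted p = 0.0024), -1.45 without CM ST replicate 4 (adjusted p = 0.038), and -0.28 without SC ST replicate 3. That between HT and FC passed the test without SC FC replicate 2 (-1.36) and without SC ST replicate 1, 2 or 3 or CM ST replicate 4 (-1.16 to -1.14), with adjusted p between 0.020 and 0.049.

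The Rtn4r signal in ST moved with the cortical marker genes. Among SC ST arrays the signal was 8.52, 10.81, 8.56 and 10.55 in replicates 1 to 4, and the mean of the cortical markers Tbr1, Neurod6, Slc17a7 and Emx1 was 8.35, 10.84, 8.32 and 10.35. Among CM ST arrays the signal was 8.91, 9.02, 8.85 and 7.14, and the marker mean 9.11, 9.77, 9.37 and 7.05. Both were high in SC replicates 2 and 4 and lowest in CM replicate 4, the array with the high choroid plexus markers. The marker mean lay between 10.56 and 11.50 in FC and between 6.32 and 7.71 in HT. The part of cortical tissue in the ST values of Rtn4r was not tested.

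**Figure D5:**
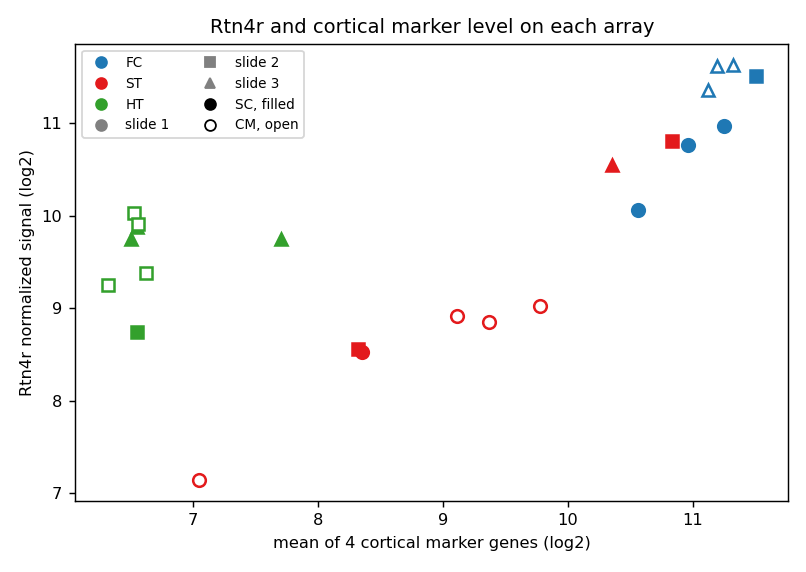
Normalized Rtn4r signal (log2, vertical axis) against the mean of 4 cortical marker genes (log2, horizontal axis) on each of the 23 arrays, with color for region, shape for slide, filled symbols for SC and open for CM. The ST arrays run from 7.05 on the marker mean with 7.14 for Rtn4r to 10.84 with 10.81, whereas the HT arrays lie at 6.32 to 7.71 with 8.75 to 10.03.

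The remaining receptors and the ligands differed less between regions. Rtn4 in SC mice was 13.51, 13.11, 13.31 and 13.18 in ST replicates 1 to 4 and 12.85, 12.97, 13.07 and 12.76 in HT replicates 1 to 4. All HT arrays lay below all ST arrays, by -0.31 ± 0.11 on average (adjusted p = 0.042), and HT lay below FC by -0.32 ± 0.10 (adjusted p = 0.015). The call between HT and ST was lost without SC ST replicate 1 or 3, SC HT replicate 1 or 4, or CM ST replicate 3 or 4 (-0.31 to -0.20, adjusted p between 0.050 and 0.25), and that between HT and FC without SC FC replicate 3 (-0.22, adjusted p = 0.13). The slide-adjusted model called neither in SC mice (-0.36 ± 0.16 and -0.38 ± 0.19), while over both diets both were (-0.37 ± 0.11, adjusted p = 0.019, and -0.24 ± 0.08, adjusted p = 0.016).

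Rtn4rl1 over both diets was 11.56 to 12.40 in FC, 11.34 to 11.94 in ST and 11.29 to 12.44 in HT, and these ranges overlapped. ST lay below FC in SC mice, by -0.56 ± 0.22 (adjusted p = 0.095), and this passed the test in the slide-adjusted model (-0.80 ± 0.20, adjusted p = 0.013), without SC ST replicate 2 (-0.65, adjusted p = 0.028) and without SC HT replicate 4 (-0.57, adjusted p = 0.049). HT exceeded ST by 0.50 ± 0.20 (adjusted p = 0.085), which passed without either of these arrays (0.59 and 0.66), and lay at -0.0024 in the slide-adjusted model. Over both diets ST lay below FC by -0.66 ± 0.13 (adjusted p = 5.5e-04) and HT exceeded ST by 0.42 ± 0.12 (adjusted p = 0.0073), while the slide-adjusted model called neither (-0.36 ± 0.15 and 0.06 ± 0.18). Rtn4rl2 ranged from 7.83 to 8.65 over all arrays, and none of its 3 SC region differences passed the test. Over both diets HT lay below FC by -0.21 ± 0.07 (adjusted p = 0.016), or by -0.25 ± 0.08 in the slide-adjusted model (adjusted p = 0.018). Omg ranged from 12.49 to 13.09, with region differences of -0.05, -0.05 and 0.00 in SC mice (ST over FC, HT over FC, HT over ST; adjusted p = 0.78, 0.67 and 0.99). Of 13 tested oligodendrocyte markers, 12 were called higher in ST than in FC, beside 14.9% of all identifiers called. Between HT and FC, 12 were called higher in HT and 1 (Mbp, -0.67) lower, beside 43.2% of all identifiers. The median differences were 0.90 and 0.87. The slide-adjusted model called 11 and 8 of the markers, all higher, beside 10.9% and 14.8% of identifiers. The medians of all identifiers were near 0.

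Of 32 further genes of the pathway, 30 had a tested identifier; Pirb, encoding another Nogo receptor, and the kinase gene Wnk3 had none. In FC, 5 were lower and 1 was higher in CM mice, where 28.6% of all identifiers were called, with a median of -0.10 against -0.04 for all identifiers. Those with the largest differences were Mag (-0.92 ± 0.17, adjusted p = 7.8e-04), which encodes the third myelin ligand, Fez1 (-0.44 ± 0.11, adjusted p = 0.0068), an adaptor of axon transport, Mylk (-0.44 ± 0.16, adjusted p = 0.043), a myosin kinase, and Rtn2 (-0.37 ± 0.09, adjusted p = 0.0061), a reticulon like Rtn4. Mag belongs to myelinating oligodendrocytes, and among 13 tested oligodendrocyte markers 5 fell and 1 rose in FC of CM mice, beside the 28.6% of all identifiers, with Mag, Cnp (-0.91 ± 0.17), Mobp (-0.90 ± 0.22) and Ugt8a (-0.65 ± 0.18) showing the largest differences. The mean of these markers was 11.88 to 12.64 on the SC FC arrays and 11.82 to 12.09 on the CM FC arrays, and the part of oligodendrocyte content in the Mag value was not tested. None of the 30 genes was called in FC in the slide-adjusted model, nor any of the 13 markers, where 4 and 3 of them had an unadjusted p under 0.05 and the Mag difference was -0.50.

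In ST none of the 30 genes was called between diets by limma, where 9.82% of identifiers were, while 4 had an unadjusted p under 0.05. The median was 0.05, against 0.03 for all identifiers. The largest differences were those of Arhgef12 (0.29, adjusted p = 0.11), which encodes a RhoA activator, and Ngfr, encoding p75 (0.27, adjusted p = 0.83). In HT only Rock1, encoding a RhoA-dependent kinase, was called, with 0.36 (adjusted p = 0.0497; lost under most other settings) beside 0.43% of identifiers, and 4 had an unadjusted p under 0.05, with a median of -0.02 against 0.01.

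Between ST and FC of SC mice, 2 of the 30 genes were higher in ST and 5 lower, where 14.9% of identifiers were called, led by Bdnf (-2.23, adjusted p = 0.0097), a growth factor known to be made by cortical neurons, Olfm1 (-1.30, adjusted p = 0.0037), a secreted glycoprotein, Mag (0.90, adjusted p = 0.012) and Ptprs (-0.63, adjusted p = 0.0051), a receptor for proteoglycans. Between HT and FC, 6 were higher in HT and 12 lower, where 43.2% of identifiers were called, led by Lingo4 (2.07, adjusted p = 2.0e-06), a further Lingo gene, Kalrn (-1.97, adjusted p = 4.7e-06), an exchange factor for small GTPases at synapses, Ngfr (1.71, adjusted p = 0.029) and Bdnf (-1.28, adjusted p = 0.031). Between HT and ST, 3 were higher and 7 lower, where 21.5% of identifiers were called, led by Lingo4 (1.72, adjusted p = 5.7e-05), Kalrn (-1.25, adjusted p = 0.0017), Limk1 (0.81, adjusted p = 0.0050), a kinase that acts on cofilin, and Rock2 (-0.78, adjusted p = 8.2e-04). The slide-adjusted model called 6, 10 and 8 of the 30 genes, beside 10.9%, 14.8% and 15% of identifiers. The medians of the list were -0.10, -0.14 and -0.03, and those of all identifiers lay near 0.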

How the data were processed

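RNA of 23 brain samples was measured on one-color Agilent arrays. The authors deposited scanner files with linear spot intensities (Feature Extraction 10.7.3.1) and a table of log2 values after their background correction, quantile normalization, filter and averaging. From the median spot intensities the log2 values were rebuilt with limma 3.58.1 (R 4.3.3): normexp background correction with offset 0, quantile normalization, removal of spots that did not exceed 1.1 times the log2 level below which 95% of the 308 negative control spots lay in 4 or more arrays, and the mean per transcript identifier. They differed from the deposited log2 values by at most 5e-09. The model had a mean per group and array weights. It took the mouse as random (estimated correlation -0.0398) and held no slide term, with Benjamini-Hochberg adjustment over 31395 identifiers. It was tested on simulated data that held no slide effect and no correlation within mice. That test therefore does not show how the model behaves where diet and slide are mixed. The number of arrays limits the precision, and where nothing says that samples of a group were processed separately, p-values measure the spread between these samples.

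Groups came from the sample labels and slides from the scanner files. The genes and lists were chosen with earlier results of these data known. All 8 genes were named. Of each list the counts were given, and for the pathway in each comparison and for the oligodendrocyte markers in FC also the 4 genes with the largest difference among those called, or the largest 2 where none was called. A listed gene was represented by its brightest identifier. One cortical marker is not reported here, and values of that list leave it out. Of the other marker lists in FC, 1 of 3 oligodendrocyte precursor, 2 of 4 astrocyte, 0 of 4 microglia, 1 of 7 neuron and 1 of 7 striatal markers were called between diets, beside 28.6% of all identifiers. Those called were all lower in CM mice. None of the cortical, hypothalamic, thalamic or choroid plexus markers was called. In the slide-adjusted model no marker of these lists was called in FC, nor was any identifier. Sequences and positions came from the array annotation in the scanner files, and names were matched to RefSeq (GRCm38.p6). Figures were drawn with matplotlib. SC and CM samples of the same number did not deviate together (same-numbered r -0.32 to 0.14), so numbers did not pair them. The settings varied were blocking (slide, mouse), weights, the regions fitted, signal choice, offset, normalization, filter, averaging and thresholds, and each array was left out once. A fixed slide block with no mouse block was chosen after seeing the data.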

Additional observations from a re-analysis of the deposited data

Results flagged for a closer look

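Among 40 sets of 4 arrays examined (8 genes in 5 groups), 5 held an array far from the other 3, where chance gives about 1 set in 20. The sets share arrays, and the Lingo1 set holds the FC values that chose the gene, so this count is a description and not a test. Lingo1 was 9.41 in SC FC replicate 1, on slide 2, and 5.48 to 6.12 in the other SC FC arrays, on slide 1. Rtn4r was 7.14 in CM ST replicate 4, against 8.85 to 9.02 in the other CM ST arrays, and that array had the lowest cortical and the highest choroid plexus marker means in ST. Rtn4r was 8.75 in SC HT replicate 4, the only SC HT array on slide 2, against 9.75 to 9.88. Rtn4 was 13.11 and Rtn4rl2 was 7.89 in CM HT replicate 2, against 12.90 to 12.92 and 8.09 to 8.11.

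All CM arrays lay above the SC mean of Lingo1 in FC and below it in ST, and the fitted diet differences of the regions differed by 5.91. This was not tested, because the FC values chose the gene, and the slide-adjusted model gave 0.08.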

How the results depend on the processing

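Counts were recomputed under 16 other settings and without each array. For the genes of the complex, counts in comparisons that involve FC leave out Lingo1 and are over 7 genes, and the others are over 8. The slide-adjusted model called 0 of 8 genes between diets in ST (against 1), 3 of 7 between ST and FC (against 1) and 1 of 8 between HT and ST (against 3). It called 0 pathway genes in FC (against 6) and 0 in HT (against 1). Without the mouse block, a setting chosen after seeing the data, it gave 0, 3, 1, 0 and 0. A random slide block gave 0 of the 8 genes in ST, and 2 pathway genes in FC and 0 in HT. Without array weights, and with each region fitted alone, 0 of the 8 genes were called in ST, and 3 pathway genes in FC and 0 in HT. In FC, 1 of the 7 genes was called (against 0) with no mouse block, the well-above-background filter, an offset of 50, the scanner-processed signal or the region alone. An offset of 50 gave 2 of the genes between ST and FC and 2 pathway genes in ST (against 0), and REML weights gave 2 between ST and FC. Averaging both diets gave 4 between ST and FC, 4 between HT and FC (against 2) and 5 between HT and ST. The FC-ST difference of diet effects was called for 1 gene (against 0) with the scanner-processed signal and with 75th-percentile scaling. The pathway count in HT was also 0 with the mouse number as a block, no filter, the mean spot signal, the scanner-processed signal and 75th-percentile scaling.

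Lingo1 changed direction in ST (0.33 slide-adjusted, 0.34 without the mouse block, 0.10 within 1 slide), between ST and FC (-1.13, -1.13 without the mouse block, -1.63 over both diets) and between HT and FC (-1.08 and -1.08). The cause was not tested.

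Leaving out 1 array gave 0 to 2 called genes in FC, 1 to 2 in ST, 0 to 0 in HT, 1 to 3 between ST and FC, 1 to 3 between HT and FC, 2 to 4 between HT and ST, and 0 to 1 for each difference of diet effects. Of the pathway genes it gave 3 to 7 in FC (3 without SC FC replicate 2 or CM FC replicate 1), 0 to 4 in ST (1, 2 and 4 without SC ST replicates 1, 2 and 3) and 0 to 1 in HT. The SC and CM samples share only their numbers. With the number as a replicate block 0, 1 and 0 genes were called in FC, ST and HT, and 1, 3 and 2 between ST and FC, HT and FC, and HT and ST. No slide held FC arrays of both diets, so the comparison of diets within 1 slide was not made in FC. Spots near background limit Lingo1 on slide 1.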
